A study of Mus musculus with 8 samples.

Results

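The comparison described here set basal-gate cells against luminal-gate cells of mammary glands that lack C/EBPb. It used the 4 knockout arrays of the 8 in the series, 2 of LIN-CD24+CD29hi cells and 2 of LIN-CD24hiCD29lo cells, called KO CD29hi and KO CD29lo below. The mice carried a germline deletion of C/EBPb (C/EBPb-/-), so every cell of the gland and of the animal lacked the gene, in both gates alike. The 4 wildtype arrays (WT CD29hi and WT CD29lo, 2 each) served to show which differences between the gates persisted, widened or shrank in the knockout. The glands formed 2 paired sets of knockout and wildtype, with 10 mice per group. The sources used here do not give the number of mice behind an array, their age and sex, the deleted part of Cebpb or the purity of the sorts. The cells were sorted on CD24, CD29 and LIN, a lineage panel that is used to remove blood and endothelial cells. The sort marker genes are therefore no result: Itgb1, which encodes CD29, differed by 0.35 on the log2 scale between the KO gates and Cd24a by -0.67.

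Mammary epithelium has an inner luminal layer and an outer basal layer. Basal cells express keratins 5 and 14, p63 and the smooth muscle proteins with which they squeeze milk from the alveoli, and the CD29hi gate also holds cells with stem cell activity in transplants. Luminal cells express keratins 8, 18 and 19 and tight junction proteins, and divide into cells that sense oestrogen and progesterone and progenitors of the milk-making alveolar cells. C/EBPb is a basic leucine zipper transcription factor, known for its need in ductal branching, alveolar development and milk protein expression in the mouse.

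Below, a level is the deposited log2 signal of a gene on an array, and a difference is the mean of CD29hi minus the mean of CD29lo, so that positive values are higher in CD29hi. Differences are given ± SE from the limma fit, and a gene was called where its Benjamini-Hochberg adjusted p over 14598 genes was under 0.05. Signals up to the background, which lay between 3.84 and 4.41 across the arrays, cannot be told from no expression, and a fold against a group with both arrays below their background is a lower bound ("at least"). Log2 differences use the levels as deposited, also below background. Levels are compared between arrays for 1 gene, never between genes. In such bulk samples, fewer cells of a type and less RNA per cell cannot be told apart. The replicates are labelled as biological, and with 2 arrays a group the p-values rest on little spread. Overlap is given per gene, but 57.1% of all genes did not overlap between the 2 KO gates and 52.1% between the 2 WT gates, so a gap alone says little.

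The promoters of a few genes that the results turn on are shown first, as examples from 3 patterns. Each holds a match to the letters marked in it. Most listed progenitor and alveolar promoters, and most contractile ones, held no match to the letters marked for their set. Most contractile genes were called in the same direction in both genotypes. Progenitor and alveolar genes mostly had larger differences between the gates in the knockout (19 of 26, beside 8477 of 14598 genes). So did EGF family (12 of 15) and Notch genes (17 of 25), while milk genes did not (9 of 20). Mitotic genes mostly had smaller or opposite differences. No change in a difference passed the test of a change described below. All promoters shown are the 250 bases before a RefSeq transcription start (GRCm38.p6), 5′ to 3′ on the strand of the gene. In the first set capitals mark TTGCNNAA or TTNNGCAA, looser forms of the palindrome that C/EBP factors bind. These are lactoferrin (Ltf, chr9:111019042-111019291, plus strand), Elf5, the transcription factor of alveolar fate, at 2 starts (chr2:103411848-103412097 and chr2:103423818-103424067, plus strand), and lipocalin 2 (Lcn2, chr2:32387740-32387989, minus strand).
Ltf: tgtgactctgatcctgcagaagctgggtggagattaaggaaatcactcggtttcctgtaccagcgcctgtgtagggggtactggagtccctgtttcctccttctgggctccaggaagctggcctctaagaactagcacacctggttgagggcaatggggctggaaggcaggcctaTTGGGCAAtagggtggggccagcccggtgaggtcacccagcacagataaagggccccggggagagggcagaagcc
Elf5 first start: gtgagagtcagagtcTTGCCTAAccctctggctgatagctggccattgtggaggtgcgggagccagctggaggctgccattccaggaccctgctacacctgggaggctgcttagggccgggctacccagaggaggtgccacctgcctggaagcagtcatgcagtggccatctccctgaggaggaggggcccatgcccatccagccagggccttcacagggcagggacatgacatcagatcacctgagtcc
Elf5 second start: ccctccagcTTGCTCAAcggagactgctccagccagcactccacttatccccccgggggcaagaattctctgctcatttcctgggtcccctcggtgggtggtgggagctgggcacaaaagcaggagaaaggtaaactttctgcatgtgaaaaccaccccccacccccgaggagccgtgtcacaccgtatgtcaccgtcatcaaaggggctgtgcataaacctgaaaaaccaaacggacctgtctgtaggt
Lcn2: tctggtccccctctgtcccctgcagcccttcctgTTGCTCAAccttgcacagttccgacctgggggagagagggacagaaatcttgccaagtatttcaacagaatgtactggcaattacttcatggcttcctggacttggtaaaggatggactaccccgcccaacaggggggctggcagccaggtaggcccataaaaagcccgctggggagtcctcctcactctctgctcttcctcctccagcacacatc
The matches began 75 bases before the start in Ltf, 235 and 241 in Elf5 and 216 in Lcn2, and the one in Ltf overlaps an ATTGG. Searched on both strands, 4 of the 18 progenitor and alveolar genes with a promoter in the table held such a match (22.22%), against 2 of 30 cell-cycle genes (6.67%) and 10.84% of 27025 genes.

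In the second set capitals mark CCAAT boxes (CCAAT or ATTGG) and the cell-cycle homology region (TTTGAA or TTCAAA), in Cdk1, the mitotic kinase (chr10:69352913-69353162, minus strand), and in the proliferation marker Mki67 (chr7:135716380-135716629, minus strand). In the last line they mark a CArG box, the site of serum response factor, in the myosin light chain gene Myl9 (chr2:156775214-156775463, plus strand).
Cdk1: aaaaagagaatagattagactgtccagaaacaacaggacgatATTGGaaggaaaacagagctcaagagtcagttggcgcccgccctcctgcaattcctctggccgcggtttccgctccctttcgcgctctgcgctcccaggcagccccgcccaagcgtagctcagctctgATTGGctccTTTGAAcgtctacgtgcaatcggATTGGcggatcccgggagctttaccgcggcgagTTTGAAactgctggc
Mki67: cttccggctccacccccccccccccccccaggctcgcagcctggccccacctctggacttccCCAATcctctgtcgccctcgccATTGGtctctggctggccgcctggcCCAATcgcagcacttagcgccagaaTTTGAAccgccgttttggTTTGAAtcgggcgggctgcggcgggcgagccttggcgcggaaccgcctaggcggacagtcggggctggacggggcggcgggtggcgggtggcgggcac
Myl9: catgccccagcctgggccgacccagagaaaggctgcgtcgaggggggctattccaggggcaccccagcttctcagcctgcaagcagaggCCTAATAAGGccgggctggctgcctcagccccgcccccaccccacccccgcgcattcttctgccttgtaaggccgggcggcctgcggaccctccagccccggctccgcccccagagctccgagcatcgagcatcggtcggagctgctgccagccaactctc
Cdk1 and Mki67 each held 3 CCAAT boxes and 2 cell-cycle homology regions. At least 2 CCAAT boxes stood in 13 of 30 cell-cycle promoters (43.33%), against 6 of 20 contractile promoters and 11.51% of all genes, and a cell-cycle homology region in 9 of 30, against 18.26%. A CArG box stood in 4 of 20 contractile promoters (20.0%), against 1.62% of all genes. These matches describe letters only, and the CCAAT box was searched apart from the C/EBP-like forms of the first set. Binding at these sites was not measured here.

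Cebpb, the targeted gene, read 8.60 and 9.38 in KO CD29hi and 9.23 and 8.89 in KO CD29lo, against 11.83 to 12.25 in the wildtype arrays. On this probe set, its brightest, all knockout arrays lay below all wildtype arrays, as labelled, but well above background. Its dimmer probe set was below background in the knockout, at 2.61 and 3.23 in KO CD29hi and 2.25 and 3.06 in KO CD29lo. In wildtype the dimmer probe set read 3.60 to 4.61, near background. Whether either probe set lies inside the deleted part was not tested, and outside it a probe set checks nothing. Cebpb did not differ between the KO gates (-0.07 ± 0.27, limma adjusted p = 0.906). Of its family, Cebpd alone passed, lower in CD29hi (9.46 and 9.36 against 11.15 and 10.73, -1.53 ± 0.30, limma adjusted p = 0.0123), a call lost when either KO CD29hi array or KO CD29lo replicate 1 was left out (up to 0.0683). Replicates correlated at 0.954 within KO CD29hi and at 0.931 within KO CD29lo, and KO arrays of different gates at 0.897 to 0.905. KO CD29lo replicate 1 stood apart from its replicate: it had the highest background (4.41), the lowest share of probe sets above background (64.74%, against 68.03% to 71.16%) and a far lower level of stromal genes, described at the end. Results are given without it where this changes them.

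The gates remained sharply different without C/EBPb. In the knockout 2053 of 14598 genes were called, which is 14.1% of those tested, 1081 higher in CD29hi (7.41%) and 972 higher in CD29lo (6.66%). In wildtype 1196 were called (8.19%), 578 higher in CD29hi (3.96%) and 618 higher in CD29lo (4.23%). In both genotypes 945 genes were called (6.47% of those tested), all in the same direction, 460 higher in CD29hi and 485 in CD29lo. They were 46.03% of the knockout calls and 79.01% of the wildtype calls, and 0 genes were called in opposite directions. The knockout count and its split by direction rested on single arrays: leaving out KO CD29hi replicate 1 gave 722, replicate 2 of that group 1073, and KO CD29lo replicate 1 and 2 gave 1507 and 1603. Of the 2053 genes, 34.2%, 49.1%, 60.7% and 63.5% were called again in these 4 fits. Without KO CD29hi replicate 1 the split was 334 higher in CD29hi and 388 in CD29lo, and without replicate 2 it was 451 and 622, so the excess of CD29hi genes turned. The wildtype count fell to 560 and 512 without WT CD29hi replicate 1 and 2, and to 524 and 728 without WT CD29lo replicate 1 and 2.

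No gene's difference between the gates was called as changed by the genotype. The test of the KO difference minus the WT difference called 0 genes (0.0%), with 722 at an unadjusted p under 0.05 (4.95% of 14598) and a smallest adjusted p of 0.9498 by limma. Everything said below of a difference that widened or shrank therefore describes these 8 arrays, with unadjusted p, and no such change passed the test over all genes. The median SE of that change was 0.55, beside 0.39 for the KO difference.

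Across genes, the KO and WT differences correlated at 0.7611 over the 14598 genes, which are not independent replicates and share 1 array platform and amplification. Among the genes called in the knockout, 2001 (97.47%) had the same sign in wildtype, against 73.5% of all genes. Knockout calls had a median absolute difference of 1.85 in the knockout and 1.25 in wildtype, and wildtype calls 2.10 in the knockout and 2.22 in wildtype. A choice of genes by 1 genotype favours that genotype, so the sizes were also compared for the 3345 genes (22.9%) called on the average of both. Of these, 68.9% of the 1775 higher in CD29hi and 64.9% of the 1570 higher in CD29lo had the larger difference in the knockout, in the direction of the call. Over all 14598 genes 8477 were larger on another measure, the absolute difference with groups below background raised to it. The shares ranged from 54.9% to 71.5% and from 58.8% to 73.8% when an array was left out. The median difference in the direction of the call was 1.23 in the knockout against 1.00 in wildtype for the genes of CD29hi. For those of CD29lo it was 1.52 against 1.30.

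**Figure D1:**
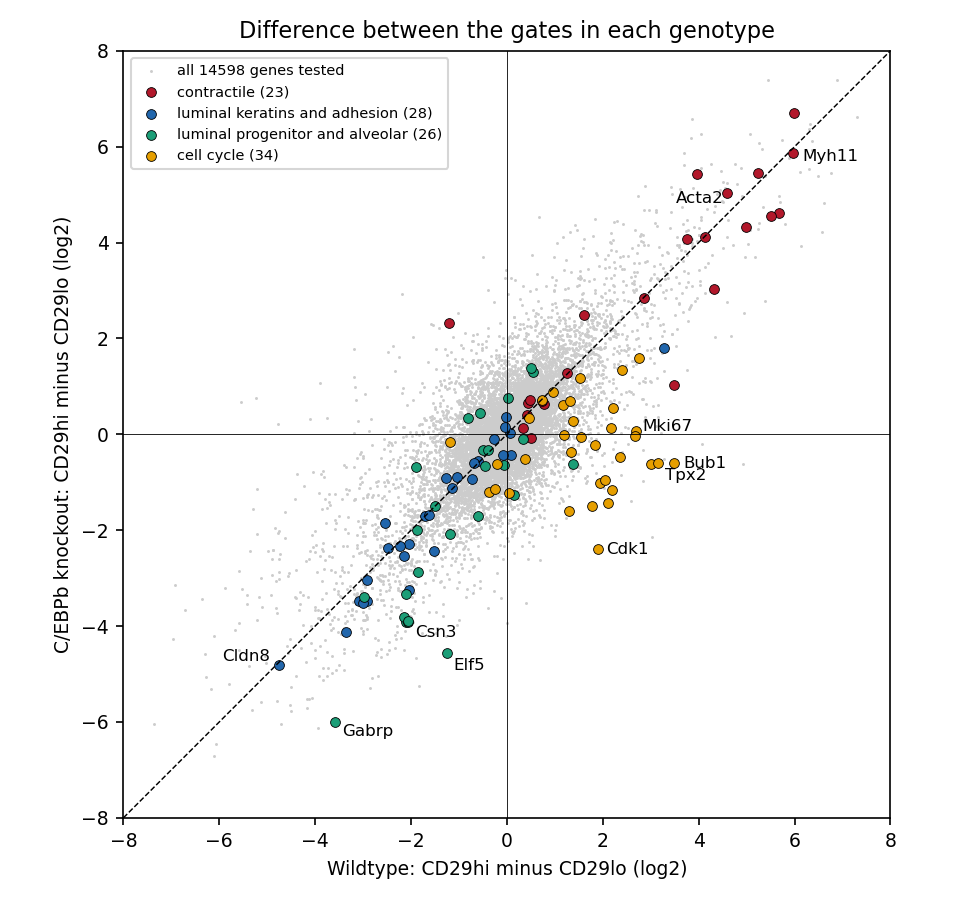
Difference between the gates (CD29hi minus CD29lo, log2) in wildtype on the x axis and in the knockout on the y axis for 14598 genes, with members of 4 gene lists in colour and equal differences on the dashed line. Most contractile and luminal keratin genes lie near the line, several alveolar genes such as Elf5 (-4.57 in the knockout, -1.26 in wildtype) lie below it, and most cell-cycle genes (30 of 34) lie to the right of 0 in wildtype and 22 of 34 lie below 0 in the knockout (Cdk1: -2.40 and 1.91).

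The largest differences in favour of KO CD29hi included Myh11 and Trp63, described below, and genes of other kinds. Reln, a secreted matrix protein of neurons, read 10.06 and 10.25 in KO CD29hi and was below background in KO CD29lo (3.02 and 2.54), a difference of 7.38 ± 0.47 (limma adjusted p = 0.000185) and at least 58.4-fold. The actin-binding leiomodin gene Lmod1 was 105-fold higher in CD29hi (11.48 and 11.06 against 5.42 and 3.70). The homeobox gene Irx4 was at least 61.8-fold higher (10.06 and 10.41 against 3.89 and 3.63), the secreted ligand gene Bmp7 at least 61.1-fold (10.21 and 10.23 against 4.10 and 4.08) and the chemokine gene Cxcl14 67.4-fold. The groups did not overlap for any of these 5 genes, and their wildtype differences were of the same order, from 5.25 in Cxcl14 to 6.89 in Reln. All of the 15 largest genes of this direction, among them also Igfbp3, Moxd1, Hunk, Kirrel3, Rnf150, Tns4, Ripor2 and the host gene of miR-205, Mir205hg, kept their call in each of the 8 fits with 1 array left out, with a limma adjusted p of at most 0.0339.

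Among the largest differences in favour of KO CD29lo, Fgf13, an intracellular fibroblast growth factor homologue, read 9.13 and 10.14 in KO CD29lo and 3.93 and 3.11 in KO CD29hi, 69.3-fold apart on the means (-6.12 ± 0.46, limma adjusted p = 0.00026), with only 1 of the 2 KO CD29hi arrays above its background. The interleukin 18 receptor gene Il18r1 was 54.6-fold higher in CD29lo on the means (9.15 and 10.06 against 3.10 and 4.57), again with 1 KO CD29hi array above background, and the antimicrobial lectin gene Reg3g at least 38.5-fold (9.14 and 9.18 against 2.08 and 3.33). The homeobox gene Barx2 stood at 9.11 and 8.97 in CD29lo and at 3.70 and 4.31 in CD29hi, 32.8-fold apart, and Cdcp3 at 9.62 and 9.98 against 4.62 and 4.82. Neither overlapped. Both differences were smaller in wildtype, -2.69 for Barx2 and -2.81 for Cdcp3, which gave changes of -2.35 ± 0.51 (limma unadjusted p = 0.00151) and -2.27 ± 0.52 (limma unadjusted p = 0.00215). Of the 15 largest genes, 12 kept their call whichever array was left out. Mmp3 and Pcolce2, both expressed by stromal cells, lost it without KO CD29hi replicate 1, and Wfdc17, a protease inhibitor gene of myeloid cells, lost it without any array but KO CD29hi replicate 2 (limma adjusted p up to 0.143).

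Most contractile genes were called higher in CD29hi in both genotypes. Of 25 listed genes 23 were tested, and 18 were called higher in CD29hi in the knockout and 18 in wildtype, none lower and 17 of them in both, beside 7.41% and 3.96% of all genes. Smooth muscle actin (Acta2) read 12.66 and 12.38 in KO CD29hi and 7.43 and 7.55 in KO CD29lo, a difference of 5.03 ± 0.19 (limma adjusted p = 3.12e-05) beside 4.58 in wildtype. Smooth muscle myosin (Myh11) read 12.11 and 11.83 against 6.69 and 5.54 (5.86 ± 0.37, limma adjusted p = 0.000185), beside 5.97 in wildtype. The gates were far apart in both genes and in both genotypes. Calponin (Cnn1, 5.46 in the knockout and 5.24 in wildtype), myosin light chain kinase (Mylk, 4.11 and 4.13) and tropomyosin 2 (Tpm2, 2.84 and 2.85) had nearly the same difference in both. The light chain gene Myl9, whose promoter is printed above and which was named after its values were seen, differed by 4.55 in the knockout and 5.50 in wildtype.

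The list's median difference was 2.84 in the knockout and 3.48 in wildtype, beside 0.03 and 0.00 over all genes. The median change per gene (KO minus WT difference) was only -0.01, so the gap between these medians is not a typical change. The difference was larger in the knockout in 10 of 23 members and smaller in 13. For the change, 4 members had an unadjusted p under 0.05 by limma, beside 4.95% of all genes. Between 14 and 19 members were called in the knockout when an array was left out. Smoothelin (Smtn, 3.04 ± 0.71) and the cytoskeletal genes Cald1 (0.65), Lpp (0.70) and Actn1 (0.64) lost their call when either KO CD29hi array was left out. Smtn, Cald1 and Actn1 also lost it without KO CD29lo replicate 1, Lpp and Actn1 without KO CD29lo replicate 2, and Actn1 without either WT CD29hi array (up to 0.177). Transgelin (Tagln), an actin-bundling protein, differed more in the knockout: it read 11.55 and 11.14 against 6.19 and 5.67 in the knockout and 11.30 and 11.86 against 7.69 and 7.56 in wildtype. Its KO CD29lo arrays were thus below its WT CD29lo arrays, and the difference grew by 1.46 ± 0.42 (limma unadjusted p = 0.00782). Pdlim3, a Z-disc adaptor gene named after its values were seen, went the other way, from 3.48 in wildtype to 1.03 in the knockout, where it was not called.

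Basal keratins were called in both genotypes too. Of 23 keratin and adhesion genes, 9 were called higher in KO CD29hi and 1 higher in KO CD29lo, beside 7.41% and 6.66% of all genes. Wildtype had 10 and 0, beside 3.96% and 4.23%, with 9 called in both genotypes. The medians were 1.02 in the knockout and 1.34 in wildtype, and the median change per gene was -0.31. The difference was larger in the knockout in 8 of 23 members and smaller in 15, beside 8477 larger of all 14598 genes. Keratin 5 (Krt5) read 12.63 and 12.39 in KO CD29hi and 7.66 and 7.40 in KO CD29lo, a difference of 4.98 ± 0.21 (limma adjusted p = 4.88e-05), beside 5.68 in wildtype. Its change of -0.70 ± 0.30 (limma unadjusted p = 0.0461) came with higher values in the luminal gate of the knockout than of wildtype (7.13 and 6.75). The differences of Krt14 (4.12 and 4.60), Krt15 (4.26 and 5.07) and the hemidesmosomal collagen Col17a1 (4.75 and 5.35) were somewhat smaller in the knockout. Krt17 (4.16 and 4.0) kept a similar one. Caveolin 1 (Cav1) was the member called higher in KO CD29lo, by -0.60 ± 0.15 (limma adjusted p = 0.0303), against 0.03 in wildtype, and lost its call without any 1 of the 4 knockout arrays (up to 0.144).

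Of 23 basal transcription factor genes tested, 8 were called higher in KO CD29hi, beside 7.41% of all genes. Another 1, Klf5, was called higher in KO CD29lo (-1.2, lost without any 1 knockout array), beside 6.66%. Wildtype had 8 and 0, beside 3.96% and 4.23%. In both genotypes 7 were called. The medians were 0.80 and 0.34, but the median change per gene was 0.01. Trp63, which encodes p63, the factor that maintains basal cells, read 11.30 and 10.80 against 6.23 and 4.35, 54.2-fold higher in KO CD29hi (5.76 ± 0.56, limma adjusted p = 0.000673), beside a difference of 5.89 in wildtype. Id4, an inhibitor of helix-loop-helix factors, differed by 3.04 and 3.42, and Bcl11b, a zinc finger factor, by 4.22 and 6.57. Bcl11b lost its call without KO CD29hi replicate 1 or 2 (up to 0.0722), and the list's 9 calls fell to 4 and 5 without these arrays. Snai2, the zinc finger factor Slug, did not pass in either genotype (3.92 ± 1.11, limma adjusted p = 0.0511, and 3.87 in wildtype). Its KO CD29lo arrays were far apart, 5.86 and 9.89, with replicate 1 the lower, as it was for stromal genes. Mesenchymal factors (Twist1, Twist2, Zeb1, Zeb2 and Prrx1) were called in neither genotype and were higher in KO CD29lo replicate 2 than in replicate 1, for example 7.32 and 3.03 in Twist2.

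Of 19 basement membrane genes 3 were called in each genotype, all higher in CD29hi, beside 7.41% of all genes in the knockout and 3.96% in wildtype. They were the same 3 laminin genes: Lamb3 (11.50 and 11.64 against 8.24 and 8.31, 3.29 ± 0.19, limma adjusted p = 0.000125), Lama3 (4.28) and Lama1 (at least 8.36-fold). Wildtype gave 3.52, 5.24 and at least 18.1-fold. The list's median was 1.28 in the knockout (0.48 without KO CD29lo replicate 1 and 1.96 without replicate 2). In wildtype it was 0.61 (-0.16 without WT CD29lo replicate 1 and 1.01 without replicate 2). The median change per gene was 0.14. Other members moved with KO CD29lo replicate 1: Sparc read 9.65 there and 12.24 in its replicate, and Col4a1 9.46 and 11.40. Leaving out KO CD29lo replicate 2 gave 9 called members.

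**Figure D2:**
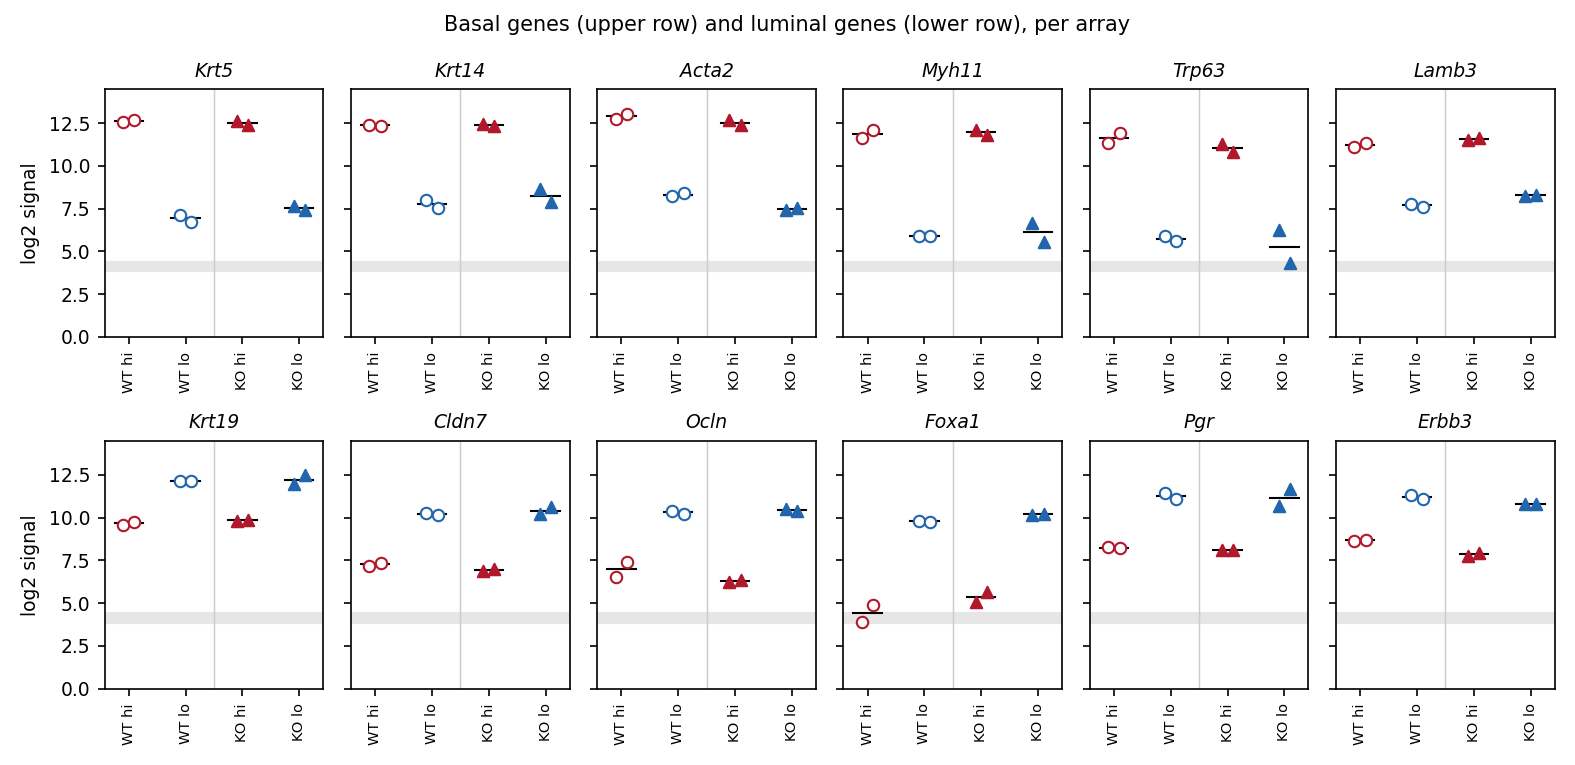
Levels (log2 signal, y axis) of 6 basal and 6 luminal genes on every array, with the replicates as points, the mean of each group as a black line and the range of background across arrays as a grey band. In both genotypes the 2 gates stay apart in each gene, for example Acta2 at 12.38 to 13.04 in CD29hi and 7.43 to 8.44 in CD29lo.

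On the luminal side, keratin and junction genes were called alike in both genotypes. Of 28 members, 18 were called higher in CD29lo and 1 higher in CD29hi in the knockout, and the same 19 in wildtype, beside 6.66% and 7.41% of all genes in the knockout. Krt19 read 11.97 and 12.48 in KO CD29lo and 9.83 and 9.85 in KO CD29hi (-2.38 ± 0.18, limma adjusted p = 0.000236), beside -2.48 in wildtype. The tight junction genes Cldn7 (-3.48 and -2.92), Cldn8 (-4.82 and -4.75), Ocln (-4.13 and -3.35) and Tjp3 (-3.52 and -3.01) did likewise. Krt8 differed by only -0.94 and -0.72, at levels of 11.62 to 12.65 in all gates, so both gates carried it. The list's median was -1.69 in the knockout and -1.58 in wildtype, and 16 to 18 members were called higher in KO CD29lo when an array was left out. Krt7 differed more in the knockout: it read 9.30 and 8.90 in KO CD29hi and 9.99 and 10.31 in WT CD29hi, with CD29lo at 11.48 to 11.77 in both genotypes, a change of -0.90 ± 0.27 (limma unadjusted p = 0.00976). Krt23, named after its values were seen, was the member higher in CD29hi (1.80 ± 0.43, limma adjusted p = 0.0274, and 3.27 in wildtype), and lost its call when either KO CD29hi array or KO CD29lo replicate 2 was left out (up to 0.131).

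Of 16 hormone-sensing genes tested, 9 were called higher in KO CD29lo and 1 in KO CD29hi, beside 6.66% and 7.41% of all genes. Wildtype had 7 and 1, beside 4.23% and 3.96%, with 8 called in both genotypes. The medians were -0.88 in the knockout and -0.93 in wildtype. Foxa1, the pioneer factor of oestrogen receptor sites, read 10.17 and 10.22 in KO CD29lo and 5.06 and 5.68 in KO CD29hi, 28.3-fold apart (-4.83 ± 0.41, limma adjusted p = 0.000404), beside -5.37 in wildtype. The progesterone receptor gene Pgr differed by -3.06 ± 0.31 (limma adjusted p = 0.000843) and -2.99, the oestrogen receptor gene Esr1 by -2.53 and -3.22, and the homeobox gene Msx2 by at least 18.5-fold and by -3.75. None of the 16 had an unadjusted p under 0.05 for a change with genotype. The insulin-like growth factor receptor gene Igf1r was the member higher in CD29hi, by 1.64 in the knockout and 1.41 in wildtype.

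Luminal progenitor and alveolar genes mostly had larger differences in the knockout. Of 26 tested members, 13 were called higher in CD29lo in the knockout and 7 in wildtype, beside 6.66% and 4.23% of all genes. None was called higher in CD29hi, and 7 were called in both genotypes. Leaving out an array gave 12 or 13 higher in KO CD29lo, with 1 higher in KO CD29hi without KO CD29lo replicate 2 or either WT CD29hi array. The median difference was -1.38 in the knockout and -0.99 in wildtype. In 19 of 26 members the difference was larger in the knockout, but so it was in 8477 of all 14598 genes. For the change, 6 members had an unadjusted p under 0.05 by limma, beside 4.95% of all genes. Lactoferrin (Ltf), an iron-binding milk protein, read 6.95 and 8.13 in KO CD29hi and 11.52 and 11.36 in KO CD29lo, against 9.95 and 9.44 and then 11.79 and 11.73 in wildtype. The luminal values nearly coincided between the genotypes, and the basal values of the knockout were all below those of wildtype. Its difference was -3.90 ± 0.35 (limma adjusted p = 0.000529) against -2.06, a change of -1.83 ± 0.50 (limma unadjusted p = 0.006).

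Kappa-casein (Csn3) had the same pattern. It read 7.33 and 8.69 in KO CD29hi and 12.09 and 11.76 in KO CD29lo, and 9.36 and 10.25 in WT CD29hi and 11.92 and 11.83 in WT CD29lo. The difference was -3.92 ± 0.43 (limma adjusted p = 0.00115) against -2.07, a change of -1.84 ± 0.61 (limma unadjusted p = 0.0158). Elf5 read 3.99 and 6.94 in KO CD29hi and 10.66 and 9.40 in KO CD29lo, against 9.14 and 8.17 and then 10.06 and 9.77 in wildtype. One KO CD29hi array was thus near background and the other well above it, and neither reached the wildtype level. The difference of -4.57 ± 0.86 (limma adjusted p = 0.0104) was lost as a call without KO CD29lo replicate 1 (limma adjusted p = 0.0526). Wildtype gave -1.26, and the change was -3.31 ± 1.21 (limma unadjusted p = 0.0252).

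Gabrp and Aldh1a3 had larger differences in the knockout too. Gabrp, a GABA receptor subunit that marks luminal progenitors, was below background in KO CD29hi (2.29 and 3.12) and stood at 9.0 and 8.40 in KO CD29lo, against 7.39 and 7.71 in WT CD29lo. It was at least 28-fold higher in KO CD29lo (limma adjusted p = 0.000522). With the background in place of its KO CD29hi level, the difference was -4.80 in the knockout and -3.57 in wildtype. The retinaldehyde dehydrogenase gene Aldh1a3 read 12.23 and 11.70 in KO CD29lo and 7.94 and 9.31 in KO CD29hi (-3.34, against -2.10 in wildtype). Named after their values were seen, Lcn2 (-1.71 and -0.61), Cd14 (-3.92 and -2.10), Ehf (-3.81 and -2.14) and Kit (-2.88 and -1.86) also had the larger difference in the knockout. Kit lost its call with replicate 1 of either KO gate left out (up to 0.089). Slc12a2, an ion cotransporter, was the exception among the leading members, at -1.5 in the knockout and -1.49 in wildtype. In 14 of the 26 members both KO CD29hi arrays lay below both WT CD29hi arrays (21.2% of all genes did), and in 4 members the same held in CD29lo (19.6%).

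Milk and secretion genes did not share 1 pattern. Of 20 tested members, the difference was larger in the knockout in 9 and smaller in 11. In all, 5 were called higher in KO CD29lo and 3 in WT CD29lo, beside 6.66% and 4.23% of all genes. The medians were -0.15 and -0.58 (-0.39 and -0.58 with groups below background raised to it). Perilipin 2 (Plin2), a coat protein of lipid droplets, read 10.00 and 10.60 in KO CD29hi and 11.51 and 11.99 in KO CD29lo, and between 12.12 and 12.60 on the 4 wildtype arrays. All wildtype arrays thus lay above all knockout arrays, and a difference appeared between the KO gates (-1.45 ± 0.24, limma adjusted p = 0.00644) that wildtype lacked (-0.18), a change of -1.26 ± 0.34 (limma unadjusted p = 0.00563). The caseins Csn1s1, Csn2 and Csn1s2a, named after their values were seen, were below background in both KO gates, so no lineage difference could be read there. In wildtype Csn1s1 stood at 7.27 and 7.82 in CD29lo and 5.43 and 6.10 in CD29hi (-1.78, not called).

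**Figure D3:**
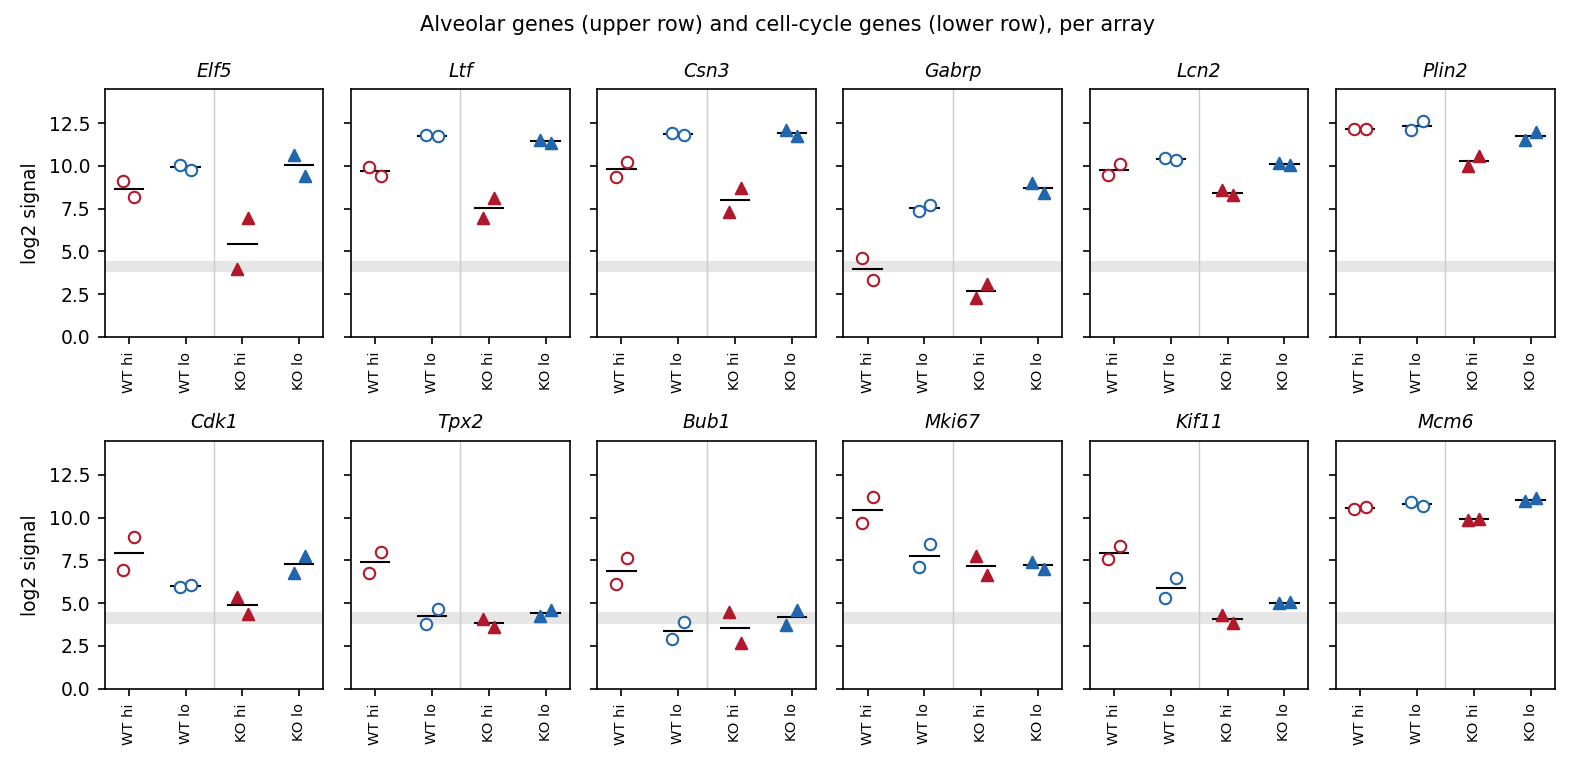
Levels (log2 signal, y axis) of 6 alveolar or milk genes and 6 cell-cycle genes on every array, with the replicates as points, the mean of each group as a black line and the range of background across arrays as a grey band. Elf5, Ltf, Csn3 and Plin2 are lower in KO CD29hi than in WT CD29hi (Ltf: 6.95 and 8.13 against 9.95 and 9.44), and Gabrp is below background in KO CD29hi. Most of the cell-cycle genes are highest in WT CD29hi (Tpx2: 6.78 and 8.01).

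Apart from the genes above, the largest gains in difference came from both gates. Npnt, the integrin ligand nephronectin, read 4.47 and 3.89 in KO CD29hi and 8.20 and 8.13 in KO CD29lo, against 5.66 and 5.97 and then 7.37 and 6.34 in wildtype. It moved down in the basal gate and up in the luminal gate, and its difference was -3.98 ± 0.44 (limma adjusted p = 0.00117) against -1.04. The carnitine transporter gene Slc22a5 (-3.32 and -0.71) fell mainly in CD29hi, at 4.75 and 5.01 in the knockout and 6.95 and 6.99 in wildtype. Higher in KO CD29hi, the sulfotransferase gene Chst1 differed by 4.54 and 0.66, gamma-synuclein (Sncg) by 3.42 and -0.01, the matrix protein tenascin C (Tnc) by 3.69 and 0.99, and follistatin (Fst), an activin antagonist, by 4.27 and 1.46. Sncg read 8.39 and 8.31 in KO CD29hi and between 4.54 and 6.93 in all other arrays. Tnc lost its call without KO CD29hi replicate 1 and Fst without either KO CD29hi array (up to 0.0725). Both were lower in KO CD29lo replicate 1 than in its replicate, at 6.76 and 8.87 in Tnc and 4.32 and 6.54 in Fst.

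Cell-cycle genes that were called higher in WT CD29hi were not called in KO CD29hi. Of 34 tested members, 7 were called higher in WT CD29hi and 0 in KO CD29hi, beside 3.96% and 7.41% of all genes. In the other direction 0 were called higher in WT CD29lo and 2 in KO CD29lo, Cdk1 and Mcm6, beside 4.23% and 6.66%. The median difference was 1.66 in wildtype and -0.30 in the knockout (-0.39 with groups below background raised to it), 30 of 34 members were above 0 in wildtype and 12 in the knockout, and 15 had an unadjusted p under 0.05 for the change, beside 4.95% of all genes. The median of the change was -1.63, with -0.97 to -2.11 when an array was left out, the smallest without WT CD29hi replicate 2. In 30 of 34 members both KO CD29hi arrays lay below both WT CD29hi arrays (21.2% of all genes), and in 12 members the same held in CD29lo (19.6%).

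Tpx2, which organises the mitotic spindle, read 4.07 and 3.59 in KO CD29hi and 4.25 and 4.61 in KO CD29lo, near background in both, against 6.78 and 8.01 in WT CD29hi and 3.79 and 4.69 in WT CD29lo. Its difference was -0.60 in the knockout and 3.15 in wildtype, a change of -3.75 ± 0.78 (limma unadjusted p = 0.00118). Mki67, named after its values were seen, read 7.74 and 6.63 in KO CD29hi and 7.43 and 7.02 in KO CD29lo, so the gates overlapped, and 9.69 and 11.20 in WT CD29hi and 7.09 and 8.46 in WT CD29lo. Its change was -2.71 ± 0.89 (limma unadjusted p = 0.0153).

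For some mitotic genes the sign turned. Cdk1 read 5.39 and 4.37 in KO CD29hi and 6.77 and 7.78 in KO CD29lo, against 6.94 and 8.89 and then 5.96 and 6.05 in wildtype. The groups did not overlap in either genotype, and ran in opposite directions. The knockout difference of -2.40 ± 0.67 only just passed (limma adjusted p = 0.0497) and lost its call without any 1 knockout array or any 1 WT CD29lo array (up to 0.218), and also with quantile normalization, no filter, no trend, only the arrays compared, the replicate block within genotype and values raised to background. The change was -4.30 ± 0.95 (limma unadjusted p = 0.00176). Anln, a scaffold of the contractile ring, differed by -2.13 and 1.00, a call lost without any 1 knockout or WT CD29lo array (up to 0.162), and the kinase gene Pbk by -1.39 and 2.59, with neither called. Over all genes 64 had a difference of at least 1 in both genotypes with opposite signs, against 1874 with the same sign. Mcm6, a subunit of the replicative helicase, was the firmest call of the list: it read 9.89 and 9.92 in KO CD29hi and 10.96 and 11.13 in KO CD29lo (-1.14 ± 0.15, limma adjusted p = 0.00259), with -0.25 in wildtype.

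Other differences that shrank were of several kinds. Sostdc1, a secreted antagonist of BMP and Wnt ligands, read 6.83 and 9.55 in WT CD29hi and 3.72 and 2.81 in WT CD29lo, and 7.20 and 6.76 against 8.27 and 6.96 in the knockout. It was at least 19.3-fold higher in WT CD29hi, and its difference was -0.63 in the knockout, where the CD29lo arrays lay above both WT CD29lo arrays. The neuronal calcium sensor gene Hpca and the antimicrobial glycoprotein gene Olfm4 were at least 9.49-fold and 10.6-fold higher in WT CD29lo, and neither was called in the knockout. Them5, an acyl-CoA thioesterase gene, was below background in both KO gates and differed by 2.84 in wildtype. C1s1, a complement gene, and Pamr1, both known from stromal cells, went from -3.81 and -4.04 to -0.90 and -0.78, and moved with the fibroblast markers described below.

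**Figure D4:**
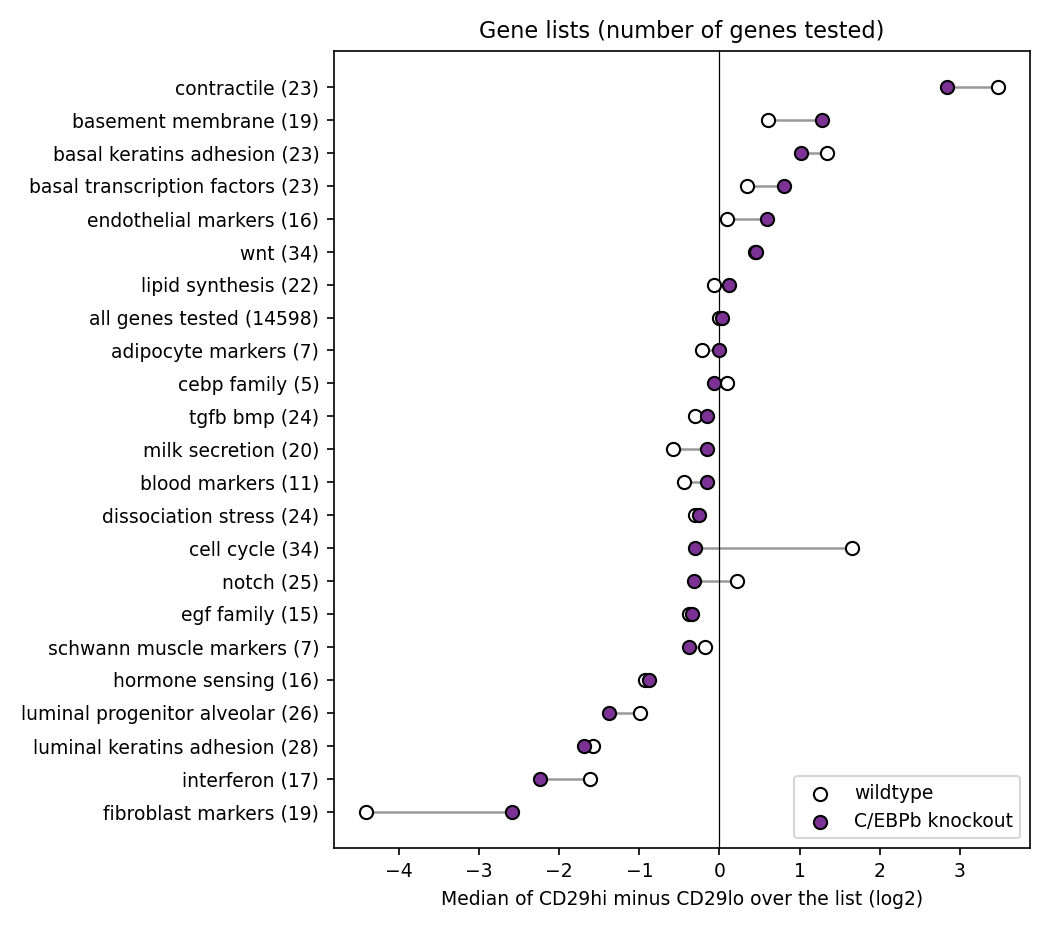
Median difference between the gates (CD29hi minus CD29lo, log2, x axis) over each gene list, in wildtype (open) and the knockout (filled), with the number of genes tested in brackets. The contractile (3.48 in wildtype, 2.84 in the knockout) and luminal keratin medians stay on their sides, while the cell-cycle median moves from 1.66 to -0.30. The gap between the points of a list is not the median change per gene, which was -0.01 in contractile genes.

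Medians near 0 moved with single arrays. When a knockout array was left out, the KO median ran from -0.56 to -0.09 in cell-cycle genes, from -0.36 to 0.03 in milk genes and from -0.29 to 0.00 in Notch genes.

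A few Notch pathway genes were called in each direction in the knockout. The ligand gene Dll1 read 10.88 and 10.74 in KO CD29hi and 6.44 and 5.78 in KO CD29lo (4.70 ± 0.33, limma adjusted p = 0.000221), beside 4.17 in wildtype, and Jag1 differed by 2.16 and 2.15. The receptor gene Notch3 differed by -2.33 and -2.22 and the E3 ligase gene Dtx4 by -3.27 and -3.03. Notch1 read 9.25 and 9.69 in KO CD29hi and 10.73 and 10.71 in KO CD29lo, a difference of -1.25 ± 0.23 (limma adjusted p = 0.00978) where wildtype had -0.34. Notch1 and Notch3 lost their calls without KO CD29hi replicate 1 (up to 0.0798). Hey1, a Notch target gene named after its values were seen, read 8.53 and 9.84 in KO CD29hi and 10.65 and 10.66 in WT CD29hi, and its difference went from 1.37 to -0.61, with neither called. In all, 2 of 25 members were called higher in KO CD29hi and 4 in KO CD29lo, beside 7.41% and 6.66% of all genes. Wildtype had 2 and 2, beside 3.96% and 4.23%. The 6 calls fell to 3 without KO CD29hi replicate 1.

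Of 34 tested Wnt genes, 8 were called higher in KO CD29hi and 3 in KO CD29lo, beside 7.41% and 6.66% of all genes. Wildtype had 7 and 1, beside 3.96% and 4.23%, with 6 called in both genotypes and medians of 0.46 and 0.45. Fewer of the 11 knockout calls were made without either KO CD29hi array. The ligand gene Wnt10a read 8.36 and 8.32 in KO CD29hi and 2.34 and 1.81, below background, in KO CD29lo, a difference of at least 16.6-fold (limma adjusted p = 0.00594). The ligand gene Wnt7b was the luminal counterpart, at 8.32 and 8.71 in KO CD29lo and 5.70 and 3.96 in KO CD29hi (-3.69 ± 0.57, limma adjusted p = 0.00456), and at least 7.22-fold higher in WT CD29lo. Both pairs of groups were clear of each other. The receptor genes Fzd3 (2.08 and 1.68) and Fzd7 (1.39 and 1.33) and the receptor-degrading ligase gene Rnf43 (1.91 and 1.72) were higher in CD29hi of both genotypes. The secreted antagonist gene Sfrp1 was higher in KO CD29lo (-2.32 ± 0.42, limma adjusted p = 0.00894, and -0.87 in wildtype) on its brightest probe set, and lost its call with either KO CD29hi array left out (up to 0.0559). The mean of its probe sets gave 0.25 instead.

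In the EGF family 3 of 15 tested members were called in each direction in the knockout, beside 7.41% and 6.66% of all genes. Wildtype had 3 and 1, beside 3.96% and 4.23%. Fewer of the 6 knockout calls were made without either KO CD29hi array. The receptor gene Erbb3 was luminal in both genotypes (7.78 and 7.93 against 10.79 and 10.83, -2.96 ± 0.19, limma adjusted p = 0.000185, and -2.55 in wildtype), and its ligand gene Nrg1 basal (3.79 and 3.35). Betacellulin (Btc), a ligand of the EGF receptor, was below background in KO CD29hi (2.67 and 3.35) and stood at 7.73 and 6.68 in KO CD29lo. It was at least 9.92-fold higher there (limma adjusted p = 0.00429), where wildtype gave -1.27, from 4.95 and 6.32 against 7.47 and 6.34. In the TGF-beta and BMP list 5 of 24 members were called higher in KO CD29hi and 4 in KO CD29lo, against 2 and 3 in wildtype. The shares of all genes were 7.41% and 6.66% in the knockout and 3.96% and 4.23% in wildtype. The 9 calls fell to 3 and 4 without KO CD29hi replicate 1 and 2, and to 5 without KO CD29lo replicate 2. Inhbb, the activin B subunit, read 11.62 and 11.57 in KO CD29lo and 6.82 and 7.80 in KO CD29hi (-4.29 ± 0.41, limma adjusted p = 0.000632). Wildtype gave -2.69, and the KO CD29hi arrays again lay below the WT CD29hi arrays (7.99 and 9.06).

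Of 17 tested interferon and antigen processing genes 6 were called higher in KO CD29lo and 5 in WT CD29lo, beside 6.66% and 4.23% of all genes. None was called higher in CD29hi. The medians were -2.24 and -1.62 (-1.94 and -1.63 with groups below background raised to it). In both genotypes 5 were called. The KO median was -1.10 without KO CD29hi replicate 1 and the WT median -1.10 without WT CD29hi replicate 1, so their order was not stable. Gbp2, an interferon-induced GTPase, read 9.38 and 9.13 in KO CD29lo and 5.57 and 6.02 in KO CD29hi (-3.46 ± 0.41, limma adjusted p = 0.00153), and Irf1, a transcription factor, differed by -2.23 and -2.33. The 6 calls fell to 3 without KO CD29hi replicate 1, among them Psmb8 and Psmb9, subunits of the immunoproteasome. Of lipid synthesis genes 2 of 22 were called in each direction in the knockout, beside 7.41% and 6.66% of all genes. In wildtype 1 was called higher in CD29hi and 2 in CD29lo, beside 3.96% and 4.23%. The desaturase gene Scd2 was higher in CD29hi of both genotypes (1.96 and 1.77), and fatty acid synthase (Fasn) differed by 1.71 in the knockout (limma adjusted p = 0.026, lost without either KO CD29hi array or KO CD29lo replicate 1, up to 0.158) and 0.73 in wildtype. The list's 4 calls were 2 without KO CD29hi replicate 1.

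Markers of other cells moved with the gates as well. Of 19 fibroblast markers, 4 were called higher in KO CD29lo and 9 in WT CD29lo, beside 6.66% and 4.23% of all genes. In both genotypes 2 were called, and none was higher in CD29hi. The medians were -2.59 and -4.42 (-2.40 and -3.81 with groups below background raised to it). The small proteoglycan gene Dcn read 7.67 and 8.87 in KO CD29hi and 10.54 and 12.12 in KO CD29lo (-3.06 ± 0.69, limma adjusted p = 0.0225, lost with KO CD29hi replicate 1 or replicate 2 of KO CD29lo left out, up to 0.15), against -4.82 in wildtype. The log2 of the list's summed signal was 12.06 and 12.11 in KO CD29hi, 12.19 and 15.01 in KO CD29lo, 10.65 and 11.36 in WT CD29hi and 13.85 and 15.54 in WT CD29lo. KO CD29lo replicate 1 thus sat near the KO CD29hi arrays and its replicate almost 3 units above. The KO median was -4.01 without KO CD29lo replicate 1 and -0.98 without its replicate. In the knockout 12 of the 19 markers were called higher in CD29lo without KO CD29lo replicate 1, none of them without its replicate (1 was then higher in CD29hi), and 0 and 2 without KO CD29hi replicate 1 and 2. Leaving out either WT CD29hi array gave 1. Replicate 1 had the lower sum in all 4 groups, and with the replicate number as a block 9 markers were called in the knockout, also with the block within genotype. For a change with genotype 3 had an unadjusted p under 0.05, 11 with the block and 12 with the block within genotype. Between 13 and 19 members were above background on each array, and none was at 0. The part of such cells in the differences above, including those of Sparc, Col4a1, Tnc, Fst, Mmp3, Pcolce2, C1s1 and Pamr1, was not tested.

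**Figure D5:**
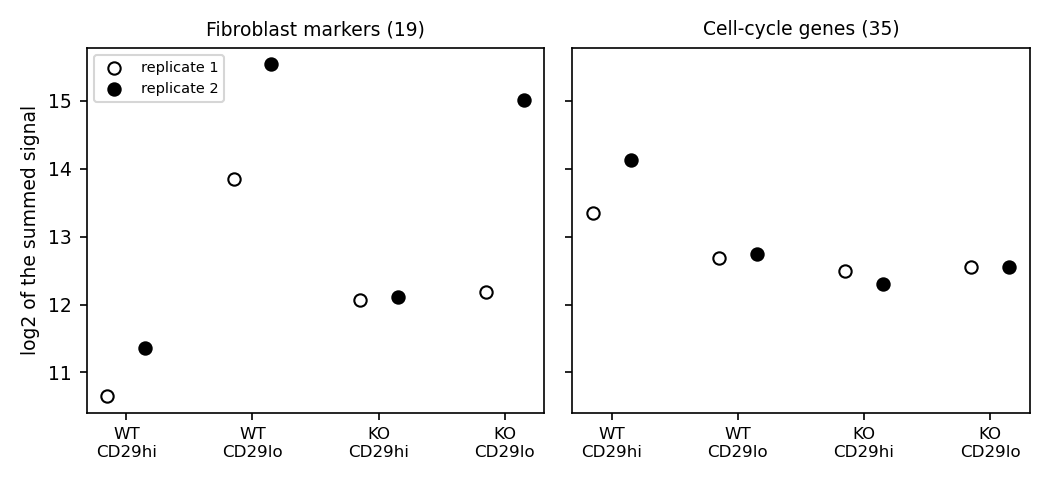
Log2 of the summed signal (y axis) of 19 fibroblast markers and of 35 cell-cycle genes on each array, by group (x axis), with replicate 1 open and replicate 2 filled. KO CD29lo replicate 1 (12.19) lies far below its replicate (15.01) in fibroblast markers, and in cell-cycle genes the WT CD29hi arrays (13.35 and 14.13) lie above all other arrays, which run from 12.31 to 12.75.

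None of 16 endothelial markers was called in either genotype by limma, nor had any an unadjusted p under 0.05 there, but 2 were called in the knockout without KO CD29lo replicate 2, with summed levels (log2) of 9.74 and 11.43 in KO CD29hi and 9.49 and 10.52 in KO CD29lo. Pecam1, the defining member, read between 5.61 and 7.40 on all 8 arrays, with no order between the gates. Of blood markers 11 of the 19 with a value could be tested. Cd74, the invariant chain of antigen presentation, was called higher in KO CD29hi (8.08 and 8.87 against 5.35 and 5.61), beside 7.41% of all genes. It lost its call without any 1 of the knockout arrays (limma adjusted p up to 0.112). The pan-leukocyte gene Ptprc was too dim to be tested, at 1.57 and 4.21 in KO CD29hi and 2.75 and 4.08 in KO CD29lo. Adipocyte markers gave 0 calls of 7 by limma in both genotypes. At an unadjusted p under 0.05 by limma there were 2 in the knockout and 1 in wildtype, beside 4252 and 3209 of all 14598 genes. Schwann and muscle markers gave 1 of 7 in each, Mbp, higher in CD29lo (-1.02 and -1.40), beside 6.66% and 4.23% of all genes. Mbp lost its knockout call without either KO CD29hi array or KO CD29lo replicate 2. Of 24 genes that dissociation of tissue induces, 4 were called higher in KO CD29lo and 5 in WT CD29lo, beside 6.66% and 4.23% of all genes. Among them were Nfkbia (-1.01 and -1.11) and Fos (-1.27 and -0.73). The 4 knockout calls were 2 without KO CD29hi replicate 1 and 8 without either WT CD29hi array. The summed levels (log2) of the 24 genes were 16.13 and 16.17 in KO CD29hi and 16.42 and 16.28 in KO CD29lo. In wildtype they were 16.03 and 15.84 in CD29hi and 16.12 and 16.19 in CD29lo, below the knockout arrays of the same gate. The part of these genes in the results was not tested.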

How the data were processed

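Each of the 8 sorted samples was run on 1 Affymetrix mouse expression array, with RNA amplified by a NuGEN kit per the labels' protocols. The deposited values, 1 per probe set, lay between 0 and 14.42, with array medians of 5.45 to 5.67. They were taken as normalized log2 signals and used as deposited by the authors. The scale was read from the values, and the normalization method is not given in the sources used here. Of 45101 probe sets, 34958 carried 1 gene in the platform annotation of 2016, 932 several and 9211 none. A RefSeq gene ID (GRCm38.p6), used for current names, was found for 34754 of those with 1 gene. Each of 18194 genes was represented by the brightest of its single-gene probe sets, on the mean of all 8 arrays, and the 14598 genes above the 25th percentile of probe set means (3.51) were tested. Background was the 95th percentile, per array, of 27 Bacillus control probe sets.

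Differences were fitted with limma 3.58.1 in R 4.3.3 (lmFit on 4 groups, eBayes with a trend, two-sided, Benjamini-Hochberg over all genes, threshold 0.05), with 4 residual and 4.31 prior degrees of freedom. The fit was checked on simulated data. Figures used matplotlib 3.10.9 in Python 3.11.15. The number of arrays limits the precision. Alternatives were quantile normalization, other filters, the mean of probe sets, no trend, only the arrays compared, values raised to background, the replicate number as a block (also within genotype) and each array left out in turn, where the lone array of a group was assumed to vary like the others. The comparison, its members and the gene lists were chosen with earlier results of these data known. Genes named are Cebpb, the 15 largest differences in each direction, up to 6 members per list of smallest p in the knockout, the 10 of smallest p for a change in each direction, the 10 largest gains and 10 largest losses in difference at an unadjusted p under 0.05, and 10 of opposite sign. The text gives a selection, and further list members were named after their values were seen.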

Additional observations from a re-analysis of the deposited data

How the results depend on the processing

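With 2 arrays a group, most knockout calls depended on the KO CD29hi arrays. Leaving out 1 array gave 722 to 1913 knockout calls, 512 to 1383 wildtype calls and 455 to 903 genes called in both, and 0 calls for a change with genotype in each of the 8 fits. Without a variance trend there were 785 wildtype calls and 611 calls in both genotypes, and 1417 knockout calls. The test of the change called 0 genes under each alternative it could be made for, with 499 to 1092 at an unadjusted p under 0.05. It could not be made with only the arrays compared. The mean of probe sets turned the KO difference of Jund to 0.07 (limma adjusted p = 0.886) and of Sfrp1 to 0.25 (limma adjusted p = 0.778), and the cause was not tested. Signals near background limit what can be said of dim genes such as Tpx2.

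The replicate number was tried as a block. Deviations of same-numbered arrays correlated at 0.024 between the KO gates, 0.095 between the WT gates and 0.006 to 0.321 between groups of different genotype, highest between KO CD29lo and WT CD29lo. The labels name 2 paired sets but do not tie the numbers to them, so whether the numbers pair the samples was not settled. With the replicate block there were 2304 knockout calls, 1406 wildtype calls, 1091 in both and 0 for a change. With the replicate block within genotype there were 1804, 1104, 867 and 0.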
